A study of Mus musculus with 4 samples.

Results

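Cx3cr1-positive macrophages were found among single cells sequenced from the growing (proximal) end of the lower incisor of 15-day-old mice. The cells were chosen by their UMI counts (unique molecular identifiers, each of which marks 1 captured transcript). A barcode was taken where it held 1000 or more detected genes, no more than 10% of UMIs from mitochondrial and 3% from hemoglobin genes, at least 10 UMIs of C1qa, C1qb and C1qc together, at least 1 UMI of Csf1r, Adgre1 or Fcgr1, no UMI of Epcam or Pecam1, and at least 2 UMIs of Cx3cr1. This rule found 1220 macrophages among 11310 barcodes that passed the quality filters and 20502 barcodes in all. They made up 1220 of the 1353 barcodes that met the rule without its Cx3cr1 threshold, here called C1q macrophages.

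Macrophages are long-lived phagocytes that settle in most tissues, where they clear dying cells, supply growth factors and sample the surroundings for microbes. CX3CR1 is the receptor of fractalkine (CX3CL1), a chemokine that is anchored in the membrane of endothelial and other cells, and it marks many tissue macrophages and the microglia of the brain. CSF1 and IL34 keep macrophages alive through their shared receptor CSF1R. The dental pulp holds a network of macrophages around its vessels and nerves.

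The study asked how tooth-forming cells respond to the loss of Din, a predicted gene with the symbol 4930453N24Rik. WT mice gave 2 libraries and Din-KO mice gave 2 libraries, all of 15-day-old animals. The Din-KO mice carried a conventional null allele in every cell, made from a gene-trap clone of embryonic stem cells and holding a LacZ reporter. The sources used here give neither the number of mice behind each library nor their sex, so p-values measure only the spread between these libraries.

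WT replicate 1 gave 403 macrophages with 4919091 UMIs, and WT replicate 2 gave 99 with 1089776. Din-KO replicate 1 gave 641 macrophages with 7512648 UMIs, and Din-KO replicate 2 gave 77 with 1100870. The second library of each genotype therefore held few of these cells. The depth of a single macrophage was alike in all 4, with a median of 10939 and 10274 UMIs in the WT libraries and 10389 and 11640 in the Din-KO libraries, replicate 1 first. All pairs of values below are in this order. No barcode of a macrophage occurred in 2 libraries.

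Several libraries stood apart in RNA of other cell types that the macrophage barcodes carried. In CPM, the UMIs of a gene scaled to 1000000 UMIs of all macrophages of a library, the 10 neutrophil markers summed to 22.0 and 9216 CPM in WT against 647 and 18.2 CPM in Din-KO. S100a8 was the most abundant of them, and WT replicate 2 had none of the 10 at 0. Few barcodes carried this RNA: 9 of 99 macrophages of WT replicate 2 and 5 of 641 of Din-KO replicate 1 held 3 or more UMIs of these markers. In WT replicate 1 and Din-KO replicate 2 it was 1 macrophage each. The 7 epithelial markers summed to 41.5 and 841 CPM in WT against 127 and 22543 CPM in Din-KO, and in Din-KO replicate 2 the enamel protein gene Amelx alone reached 18953 CPM. The keratin genes Krt14 and Krt5 were also highest there, at 44.5 and 15.4 CPM, against no more than 1.86 and 4.59 CPM in the other libraries. The 8 mesenchyme markers, led by Col1a1, summed to 1925 and 2091 CPM in WT against 1822 and 3267 CPM in Din-KO. Odontoblast markers, led by Bglap, summed to 54.5, 330, 238 and 262 CPM in the 4 libraries, and erythroid markers, led by Hbb-bs, to 578, 730, 174 and 747 CPM. B cell and perivascular markers reached at most 44.96 and 62.0 CPM. Markers of endothelium, T or NK cells and mast cells were near 0, at no more than 26.5 summed CPM in any library.

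The libraries also differed in sex-linked transcripts. No macrophage of either WT library held a UMI of the Y-linked genes Ddx3y, Eif2s3y, Kdm5d or Uty, whereas 232 of 641 (36.2%) in Din-KO replicate 1 and 34 of 77 (44.2%) in Din-KO replicate 2 did. Xist, the X-inactivation transcript, stood at 855 and 1187 CPM in WT against 442 and 553 CPM in Din-KO. The Din-KO libraries therefore held cells with Y-linked RNA beside cells with Xist, whereas no Y-linked RNA was seen in the WT macrophages. In whole libraries, genotype and this mixture cannot be told apart, and values of both kinds of Din-KO cells are given for the gene lists that the genotype comparison turns on.

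The markers matched the label of a macrophage. Cx3cr1 was at 1213 and 1845 CPM in WT against 1492 and 1505 CPM in Din-KO, against a mean of 4.06 CPM in collagen-rich mesenchyme cells of the same libraries (4397 cells with at least 20 UMIs of Col1a1, Col1a2 and Col3a1 together, under 3 UMIs of C1q and none of Ptprc, Epcam or Pecam1). A median macrophage held 13 and 17 UMIs of Cx3cr1 in WT and 15 and 14 in Din-KO, and the highest held 110. The threshold of 2 UMIs cut through a thin tail: 8, 4, 15 and 5 macrophages held exactly 2 UMIs of Cx3cr1, and 22, 4, 23 and 4 C1q macrophages just outside the rule held 1. Since Cx3cr1 chose the cells, these levels are a description.

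Ctss and Ms4a7, which the rule did not use, gave the same picture. Ctss, a lysosomal protease, was at 1246 and 1001 CPM in WT against 1688 and 1177 CPM in Din-KO. Ms4a7, a membrane protein of macrophages, was at 1120 and 1058 CPM in WT against 1659 and 990 CPM in Din-KO. At least 1 UMI of Ms4a7 was found in 97.5%, 98.0%, 99.2% and 93.5% of macrophages, and in 1.30%, 1.46%, 1.82% and 2.07% of mesenchyme cells, whose median depth was 10042, 14928, 9338 and 15362 UMIs. Over all barcodes that passed the quality filters, the macrophages contributed 84.5% of the Ms4a7 UMIs and 73.7% of the Ctss UMIs.

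**Figure D1:**
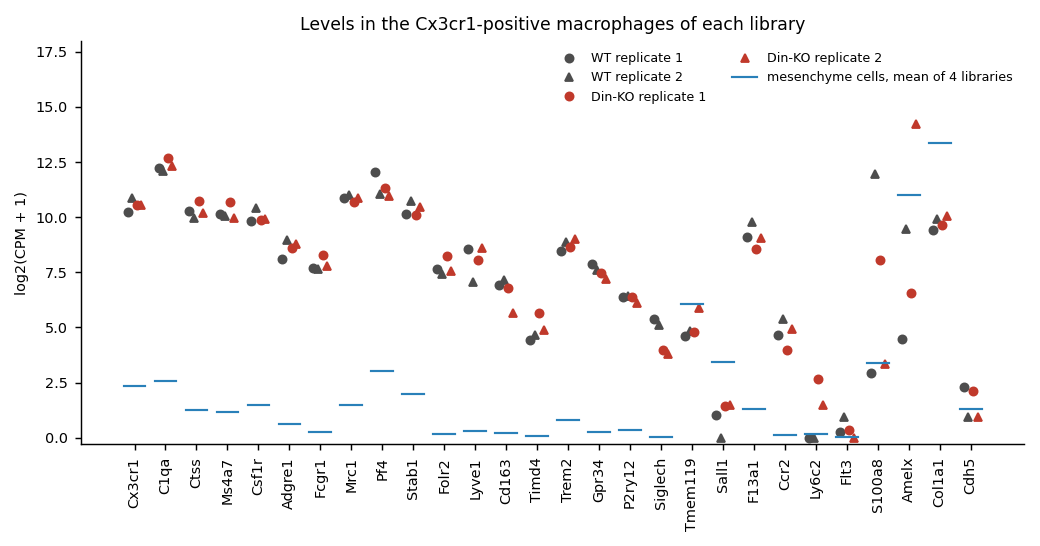
Levels of marker genes in the Cx3cr1-positive macrophages of each library, as log2(CPM + 1) on the vertical axis, with 1 point per library and a blue bar for the mean of the mesenchyme cells. Macrophage genes sit far above the bar in all 4 libraries, while S100a8 in WT replicate 2 and Amelx in Din-KO replicate 2 stand apart from the other libraries.

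The most abundant transcripts included those of a lipid carrier, a lysozyme and the C1q chains. UMIs are counted near the 3' end, so CPM was not divided by gene length. Apoe, the lipid carrier apolipoprotein E, led all nuclear genes that are not ribosomal, at 24738 and 33093 CPM in WT against 34159 and 30764 CPM in Din-KO, and the macrophages held 79.4% of its UMIs. Lyz2, the lysozyme of phagocytes, was at a mean of 6295 CPM over the 4 libraries. The complement genes C1qa, C1qb and C1qc, which encode the chains that start the classical pathway and which the rule used, stood at means of 5238, 4076 and 3826 CPM. Other genes among the 15 highest were Tmsb4x, Malat1, Gm42418, Actb, Fth1, Ftl1, Fau, Itm2b, Cst3 and Amelx, the last owing its rank to Din-KO replicate 2 alone, where it was at 18953 CPM against 20.9, 708 and 92.1 CPM in the other libraries.

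Lysosomal and clearance genes were present throughout. The 20 lysosomal proteases and glycosidases summed to 23432 and 29759 CPM in WT against 28790 and 27218 CPM in Din-KO, with Ctsb (a cathepsin), Grn (progranulin) and Lgmn (legumain) at means of 3023, 1348 and 1336 CPM beside Lyz2. Fc receptor genes summed to 5412 and 4652 CPM in WT against 5961 and 4805 CPM in Din-KO, led by their signaling chain Fcer1g. Mrc1, the mannose receptor, was at 1861 and 2065 CPM in WT against 1666 and 1859 CPM in Din-KO, and at least 96.1% of macrophages held a UMI of it in every library. Stab1, a scavenger receptor of endothelium and macrophages, was at 1122 and 1700 CPM in WT against 1090 and 1387 CPM in Din-KO. The iron genes Fth1 and Ftl1 encode the ferritin chains. Slc40a1, the iron exporter, lay between 537 and 774 CPM in the 4 libraries.

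Ligands and receptors of the CX3CL1 and CSF1 axes lay in different cell classes. Cx3cl1 was nearly absent from the macrophages, at a mean of 0.698 CPM, and its highest level was in endothelial barcodes (at least 1 UMI each of Pecam1 and Cdh5, under 3 of C1q), at 11.8 and 16.4 CPM in WT against 14.9 and 14.8 CPM in Din-KO. Csf1 showed a mean of 35.9 CPM in endothelial barcodes and 25.5 CPM in mesenchyme cells, against 4.91 CPM in the macrophages. Il34, the other ligand of the CSF1 receptor, was at a mean of at most 2.06 CPM in any of these classes. Csf1r itself, which the rule used, was at 913 and 1362 CPM in WT against 932 and 971 CPM in Din-KO. Tnfrsf11a, the RANK receptor through which osteoclast precursors are driven to fuse, was at 78.9 and 108 CPM in WT against 87.3 and 82.7 CPM in Din-KO. The defining osteoclast genes Dcstamp, Oscar and Calcr were near 0, and the 10 osteoclast markers summed to between 117 and 123 CPM in the 4 libraries.

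Genes of the perivascular, Lyve1-type macrophages described in many tissues were all detected. Pf4, a platelet and macrophage chemokine, was at 4270 and 2123 CPM in WT against 2586 and 1982 CPM in Din-KO. Folr2, a folate receptor, was detected in 63.5% and 55.6% of WT and in 63.3% and 54.5% of Din-KO macrophages. Lyve1, a hyaluronan receptor, was detected in 51.4% and 38.4% of WT and in 37.8% and 31.2% of Din-KO macrophages. Thinned to 2000 UMIs per cell the Lyve1 shares were 29.9% and 18.2% in WT and 21.5% and 22.4% in Din-KO, so the groups overlapped at equal depth. Timd4, a receptor for phosphatidylserine on dying cells, was detected in 15.4% and 17.2% of WT and in 29.5% and 19.5% of Din-KO macrophages. Of the mesenchyme cells, no more than 0.397% held a UMI of Folr2, Lyve1 or Timd4 in any library.

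Part of the gene set of microglia was also present. Trem2, a lipid receptor, was at 356 and 471 CPM in WT against 400 and 519 CPM in Din-KO. Gpr34 and P2ry12, receptors for lysophospholipid and for ADP, were at means of 188 and 79.4 CPM. Tmem119, another microglia gene, was at a mean of 33.8 CPM in the macrophages and 66.7 CPM in mesenchyme. With cells thinned to 2000 UMIs it was detected in 5.72% and 2.02% of WT and 4.06% and 11.8% of Din-KO macrophages, against 5.28%, 15.3%, 7.38% and 13.8% of mesenchyme cells, so the ranges overlapped. Sall1, a transcription factor of microglia, was detected in no more than 1.30% of macrophages and in 3.32% to 9.79% of mesenchyme cells. The most abundant transcription factor gene of the 17 listed was Maf, at 2809 and 1976 CPM in WT against 2954 and 1795 CPM in Din-KO, and Spi1, Irf8 and Mef2c were all detected.

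Genes of monocytes and dendritic cells were low or uneven. Ly6c2 stood at 0 in both WT libraries and at 5.32 and 1.82 CPM in Din-KO, and Flt3 was at most 0.918 CPM. Ccr2, the receptor by which monocytes leave the marrow, was at 24.4 and 41.3 CPM in WT against 14.6 and 29.1 CPM in Din-KO and was detected in 3.97% and 6.06% of WT and in 3.28% and 7.79% of Din-KO macrophages. Of the other monocyte genes, Plac8 and Fn1 were present in all 4 libraries, at means of 47.9 and 61.3 CPM. Vcan reached 76.6 CPM in WT replicate 1 and Chil3 62.4 CPM in WT replicate 2. In mesenchyme cells Plac8, Fn1 and Vcan were higher, at means of 281, 471 and 474 CPM, whereas Chil3 was at 0.34 CPM. The part of mesenchyme RNA in the macrophage levels was not tested. F13a1, which resident macrophages and monocytes share, was the most abundant gene of the monocyte list at a mean of 582 CPM, and Siglech led the dendritic list at 25.5 CPM.

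The macrophages also differed among themselves in MHC class II, the molecules that present antigen to helper T cells. Barcodes with at least 3000 CPM of Cd74, H2-Aa, H2-Ab1 and H2-Eb1 together numbered 22 of 403 (5.46%, exact 95% binomial interval 3.45 to 8.15) and 4 of 99 (4.04%, 1.11 to 10.0) in WT. They numbered 61 of 641 (9.52%, 7.36 to 12.1) and 6 of 77 (7.79%, 2.91 to 16.2) in Din-KO. The intervals cover counting error only, and that of each WT library overlapped that of each Din-KO library. After thinning to 2000 UMIs, Cd74 was detected in 14.7% and 13.1% of WT against 22.0% and 26.3% of Din-KO macrophages, and H2-Aa in 5.47% and 4.04% against 11.2% and 11.8%. For both, detection in the Din-KO libraries lay above that in the WT libraries. The levels overlapped: Cd74 was at 511 and 562 CPM in WT against 707 and 437 CPM in Din-KO. The 8 class II genes summed to 1209 and 1244 CPM in WT against 1495 and 923 CPM in Din-KO. At the other end, 245, 68, 340 and 38 macrophages held no UMI of the 4 genes. The cut is a limit set on a measured level, with 0, 0, 17 and 1 macrophages within 20% of it, and whether it divides cell types was not tested.

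Cells rich in MHC class II had lower levels of Lyve1, Folr2, F13a1, Cbr2 and Mrc1, genes of perivascular macrophages, in all 4 libraries. Lyve1 was at 4.37 and 0 CPM in the MHC class II-rich cells of WT against 389 and 137 CPM in the others, and at 6.38 and 22.9 CPM against 286 and 401 CPM in Din-KO. Fcna, Igf1 and Slc40a1, which are outside the Lyve1-type list, lay on the same side in every library. Mrc1 was at 450 and 426 CPM in the rich cells of WT against 1930 and 2138 CPM in the others, while the Din-KO values were 677 and 1532 CPM against 1756 and 1873 CPM. Ccr2 summed to 502, 915, 104 and 663 CPM in the rich cells and to no more than 6.53 CPM in the others, although the median rich cell held none. Besides Ccr2, the genes highest in the rich cells included Ciita (the activator of class II genes), H2-DMb1, Plbd1, Cytip, Fxyd5 and S100a6. With 4 and 6 rich cells in the second library of each genotype, these ratios are descriptions and no test was made.

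**Figure D2:**
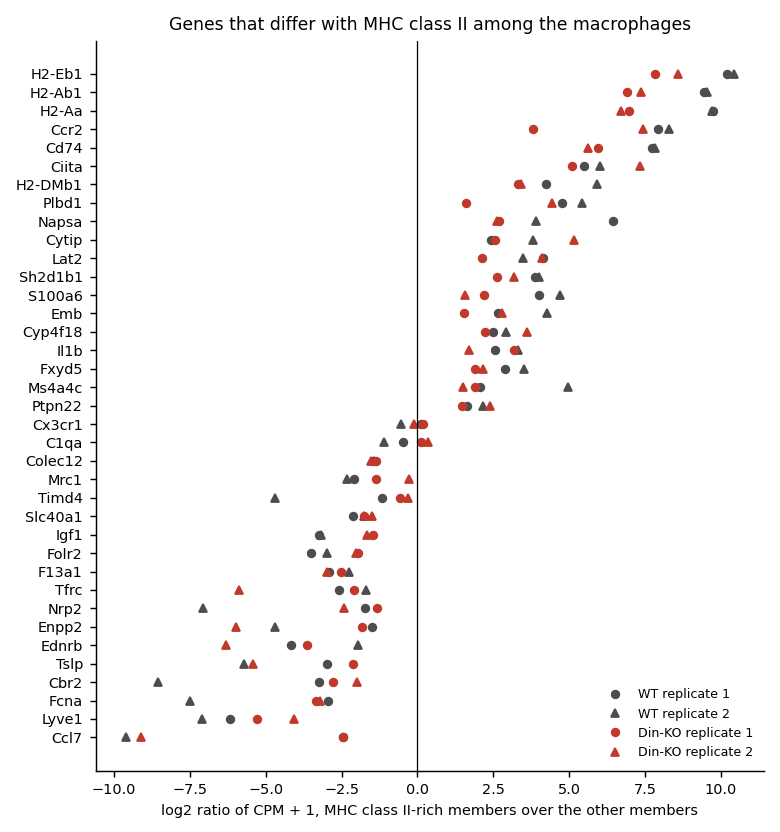
Log2 ratio of CPM + 1 between MHC class II-rich macrophages and the other macrophages, with 1 point per library and gene. The cells were chosen on Cx3cr1, so nothing is read from its points. Lyve1, Folr2 and F13a1 lie below 0 and Ccr2 and Ciita above 0 in all 4.

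Immediate early genes and cycling cells also varied between libraries. The 15 genes of the stress response to tissue dissociation, led by Fos, summed to 3512 and 13432 CPM in WT against 3348 and 8113 CPM in Din-KO, so they were higher in the second library of both genotypes. The chemokine genes Ccl2 and Cxcl2, which recruit monocytes and neutrophils, followed that order: Ccl2 was at 502 and 1314 CPM in WT against 443 and 823 CPM in Din-KO, and Cxcl2 at 320 and 1149 CPM and at 221 and 1008 CPM. The part of dissociation in these levels was not tested. Mki67, a marker of cycling cells, had a UMI in 19.1% and 11.1% of WT and in 12.9% and 10.4% of Din-KO macrophages, and after thinning in 7.96% and 5.05% against 5.62% and 5.26%. The 17 proliferation genes summed to 1941 and 1063 CPM in WT against 1258 and 1503 CPM in Din-KO, so the groups overlapped.

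The abundance of the macrophages overlapped between genotypes. They made up 10.3% (9.39 to 11.3) and 6.35% (5.19 to 7.67) of filtered barcodes in WT, and 14.0% (13.02 to 15.05) and 6.05% (4.81 to 7.51) in Din-KO. The spread between the libraries of a genotype was larger than the difference of the means, which were 8.34% and 10.0%, and with 2 libraries a group the smallest two-sided p of an exact permutation test is 0.33. The share of C1q macrophages with at least 2 UMIs of Cx3cr1 was 88.4% and 89.2% in WT and 91.3% and 91.7% in Din-KO. That share follows from the rule itself and depends on depth. Thinned to 2000 UMIs, 79.3% and 84.7% of WT and 83.7% and 85.5% of Din-KO C1q macrophages held a UMI of Cx3cr1, and the groups then overlapped.

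C1q macrophages that held a UMI of Mrc1 and none of Cx3cr1 were the closest class for comparison, but they numbered only 25 and 8 in WT and 30 and 2 in Din-KO. Of 3619 genes with a mean of at least 50 CPM in either class, 7 (0.193%) were more than 2-fold higher in the Cx3cr1-positive class in all 4 libraries and 1 (0.0276%) was more than 2-fold lower. A gene could pass the 50 CPM limit through either class, and 1 UMI in the Cx3cr1-negative class of Din-KO replicate 2 equals 94.2 CPM, so these counts are a description from which nothing is read. The first count includes Cx3cr1, which set the classes. In WT replicate 2 and Din-KO replicate 2 most of the others had 0 UMIs in the Cx3cr1-negative class, so only the larger pair of libraries gives usable levels. There Pmepa1, an inhibitor of TGF-beta signaling, was at 129 and 177 CPM in the positive class against 35.1 and 36.4 CPM (8 UMIs each) in the negative class. Cd209g, a lectin gene, was at 42.5 and 77.3 CPM against 4.39 and 13.6 CPM (1 and 3 UMIs). Lyve1 went the other way in these libraries, at 371 and 263 CPM against 637 and 391 CPM. Without WT replicate 1, WT replicate 2, Din-KO replicate 1 or Din-KO replicate 2 the count of higher genes became 43, 13, 52 or 10 and that of lower genes 9, 3, 8 or 2, so both depend on every library.

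The comparison of Din-KO with WT was not used to choose the cells and was tested in edgeR on UMIs summed per library. Din itself, on chromosome 16 from 64762205 to 64772372 (GRCm38.p6), was low in these cells, at 21.0 and 14.4 CPM in WT against 8.85 and 9.61 CPM in Din-KO after TMM scaling, which evens out differences in composition between libraries. Levels of single genes in whole libraries below are on this scale, whereas sums over gene lists and levels in subsets of the macrophages are CPM without it. These values rest on 102, 16, 62 and 11 UMIs, and the log2 fold change was -0.99 ± 0.39 (SE) with an adjusted p of 1.0. The sources used here do not say whether the counted 3' ends lie in the deleted part of the gene, so Din does not check the labels. In mesenchyme cells a UMI of Din was found in 33.8% and 37.7% of WT and in 20.4% and 35.8% of Din-KO cells, against 21.1%, 14.1%, 8.42% and 10.4% of macrophages.

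Of 11109 genes tested, 0 (0%) passed an adjusted p of 0.05 in edgeR, where the smallest adjusted p was 0.0588. At an unadjusted p of 0.05, 219 genes (1.97%) were higher and 41 (0.369%) lower in Din-KO. DESeq2, run as an alternative on the same sums, called 40 genes higher (0.36%) and 1 lower (0.009%). The 219 and the 40 higher genes both included the 4 Y-linked genes. The count of edgeR's calls depended on single libraries: it was 20 without WT replicate 1, 11 without WT replicate 2, 48 without Din-KO replicate 1 and 94 without Din-KO replicate 2. Between genotypes, 1324 genes (11.9%) were higher in each Din-KO library than in each WT library and 1374 (12.4%) were lower, and the share of each gene list is read against these percentages.

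The 5 genes with the smallest p on the higher side shared an adjusted p of 0.0588 in edgeR and passed DESeq2's threshold. Ifi202b, an interferon-inducible DNA sensor on chromosome 1 (173962569 to 173982844), had 0 UMIs in both WT libraries and 48.0 and 65.5 CPM in Din-KO, at least 113-fold higher than a floor of 3 counts over the WT group. C4b, a complement component on chromosome 17 (34728139 to 34743902), was at 4.52 and 6.31 CPM in WT against 56.4 and 58.5 CPM in Din-KO (log2 fold change 3.49 ± 0.33 SE). In cells with Xist and no Y-linked UMI its log2 fold change was 3.46, with an edgeR adjusted p of 0.711. Cdkn1a, the cell cycle inhibitor p21 on chromosome 17 (29090979 to 29100722), was at 48.9 and 55.9 CPM in WT against 439 and 674 CPM in Din-KO (3.41 ± 0.36). In all 3 the libraries of a genotype lay close together and the genotypes were far apart.

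Phlda3 and Oasl1 completed this group. Phlda3, a p53 target that restrains AKT, on chromosome 1 (135766085 to 135769134), was at 5.55 and 2.70 CPM in WT against 53.5 and 69.9 CPM in Din-KO (3.69 ± 0.39). Oasl1, an antiviral gene on chromosome 5 (114923143 to 114937911), was at 8.02 and 9.01 CPM in WT against 65.5 and 54.1 CPM in Din-KO (2.84 ± 0.31). Unlike C4b, Ifi202b, Cdkn1a, Phlda3 and Oasl1 each passed edgeR's threshold in cells with Xist and no Y-linked UMI (adjusted p = 0.0403). The Y-linked genes Ddx3y, Eif2s3y, Uty and Kdm5d followed the sex mixture described above.

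The 5 genes with the smallest p on the lower side were Cd36, Egfl7, Siglech, Mgl2 and Hist1h2ab. Cd36, a receptor for fatty acids and oxidized lipoprotein on chromosome 5 (17781690 to 17888959), was at 184 and 248 CPM in WT against 68.9 and 62.0 CPM in Din-KO (-1.71 ± 0.30, edgeR adjusted p = 0.334), and it was the gene that DESeq2 called lower. Beside the level, a UMI of Cd36 was found in 73.7% and 71.7% of WT and in 32.9% and 41.6% of Din-KO macrophages, and after thinning in 26.4% and 34.3% against 9.36% and 14.5%. Within Din-KO the level varied with sex-linked RNA in opposite ways. In Din-KO replicate 1 it was 109 CPM in cells with a Y-linked UMI and 23.9 CPM in cells with Xist alone, and in Din-KO replicate 2 it was 36.9 and 97.6 CPM. Siglech, a sialic acid-binding lectin of plasmacytoid dendritic cells and microglia, was at 41.1 and 33.3 CPM in WT against 15.8 and 12.2 CPM in Din-KO (-1.38 ± 0.32, adjusted p = 0.606). Mgl2, a galactose-binding lectin of macrophages, was at 93.8 and 115 CPM against 49.4 and 39.3 CPM (adjusted p = 0.632). Egfl7 was at 55.9 and 46.0 CPM against 22.6 and 16.6 CPM (adjusted p = 0.564), and the histone gene Hist1h2ab at 24.1 and 8.11 CPM against 4.28 and 1.75 CPM (adjusted p = 1.0).

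Genes induced by interferon had higher levels in the Din-KO macrophages, although none passed edgeR's adjusted threshold singly over all macrophages. Type I interferons act through the receptor chains IFNAR1 and IFNAR2 and a transcription factor complex, which binds the interferon-stimulated response element (ISRE) before its target genes. All 38 genes of the interferon-stimulated list that could be tested had a positive log2 fold change, with a median of 1.17 against -0.02 over all genes tested. The genotypes did not overlap for 31 of the 38 (81.6%, background 11.9%). DESeq2 called 10 of the 38 higher, against 0.36% of all genes tested, while edgeR called 0. The median was 0.83 without Din-KO replicate 1 and 1.60 without WT replicate 1, the lowest and highest of the 4 fits with a library left out, and 1.13 in cells with Xist and no Y-linked UMI. Summed over the list without TMM scaling, the level was 3371 and 2016 CPM in WT and 7810 and 5239 CPM in Din-KO.

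Members of the list differed in level and in how the Din-KO libraries ranked. Irf7, the transcription factor that amplifies interferon production, was at 59.6 and 37.0 CPM in WT against 396 and 155 CPM in Din-KO (2.50 ± 0.50, adjusted p = 0.461). Rsad2, the antiviral enzyme viperin, was at 19.1 and 6.31 CPM in WT against 95.9 and 329 CPM in Din-KO (3.90 ± 0.71, adjusted p = 0.389). Bst2, a tether of budding virions, was at 488 and 304 CPM in WT against 1672 and 678 CPM in Din-KO (1.57 ± 0.50, adjusted p = 1.0). Irf7 and Bst2 were highest in the first Din-KO library and Rsad2 in the second. The most abundant gene of the list, Ifi27l2a, was at 1088 and 304 CPM in WT against 2417 and 1073 CPM in Din-KO, so its groups overlapped.

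The promoters of list members were searched for the letters of an ISRE, GAAANNGAAA on either strand, within 250 bases before the start of the gene (RefSeq, GRCm38.p6). Of 27025 promoters, 828 (3.06%) held it. It was present in 14 of 30 promoters of the interferon-stimulated list that matched by symbol (46.7%) and in 9 of 9 of the interferon GTPase list. In the other lists searched it was in 1 of 8 MHC class I promoters (12.5%), 2 of 8 of macrophage markers (25%), 1 of 20 of p53 targets (5%), 0 of 9 of complement genes and 0 of 10 of Lyve1-type genes. For the 5 members of the interferon-stimulated list with a match and the smallest p, and for Ifit3, 30 bases around 1 match are shown as an example of the motif in this list, and none of these genes passed edgeR's threshold. The match is in capitals and each line reads 5' to 3' on the strand of the gene. TTTCNNTTTC is the same motif on the opposite strand. A match is a description of these letters and not a shown binding site.
Ifit3b (chr19:34607793-34607822, plus strand): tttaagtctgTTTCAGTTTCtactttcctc
Oas3 (chr5:120777715-120777744, minus strand): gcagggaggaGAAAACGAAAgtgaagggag
Rsad2 (chr12:26456553-26456582, minus strand): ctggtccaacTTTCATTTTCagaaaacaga
Ifit1 (chr19:34640794-34640823, plus strand): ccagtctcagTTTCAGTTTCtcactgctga
Ddx60 (chr8:61928057-61928086, plus strand): ggagcagaagaGAAACCGAAActatccttc
Ifit3 (chr19:34583397-34583426, plus strand): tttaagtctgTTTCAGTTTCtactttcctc

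Ifit3b and Ifit3 have the same 30 bases here, and as near-identical neighbors they can share reads, so the split between them is uncertain. Ifit3b was at 6.79 and 6.31 CPM in WT against 37.0 and 33.2 CPM in Din-KO (2.41 ± 0.34, adjusted p = 0.164). Ifit1, which encodes a sensor of viral RNA caps, was at 15.8 and 5.41 CPM in WT against 50.2 and 59.4 CPM in Din-KO (2.18 ± 0.44, adjusted p = 0.461). Oas3, an enzyme that makes 2-5A in response to double-stranded RNA, was at 3.70 and 4.51 CPM in WT against 31.3 and 17.5 CPM in Din-KO (2.66 ± 0.46, adjusted p = 0.332). In each of the 3 the genotypes were apart.

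The median macrophage of each Din-KO library also held more UMIs of the list than that of each WT library. With every cell thinned to 2000 UMIs, the median macrophage held 6 and 4 UMIs of the interferon-stimulated list in WT and 13 and 8 in Din-KO. The quartiles were 3 to 10 and 2 to 5.5 UMIs in WT and 7 to 21 and 5 to 12 UMIs in Din-KO, so the libraries overlapped cell by cell. A few cells held far more than the rest: 3 of the 76 thinned cells of Din-KO replicate 2 held 74, 85 and 110 UMIs of the list. Rsad2, at 329 CPM in that library, was detected at full depth in 18.2% of its macrophages, against 24.96% in Din-KO replicate 1 and 12.4% and 6.06% in WT. Irf7 was detected after thinning in 11.9% and 6.06% of WT and in 43.2% and 23.7% of Din-KO macrophages. In mesenchyme cells at full depth Irf7 was detected in 3.91% and 3.31% of WT and in 10.2% and 8.10% of Din-KO cells. Within Din-KO the list did not divide by sex-linked RNA: cells with a Y-linked UMI and cells with Xist alone stood at 8038 and 7555 CPM in replicate 1 and at 5479 and 4962 CPM in replicate 2, all above the WT libraries. Transcripts of interferon itself were at the limit of detection, with Ifnb1 and Ifng at 0 CPM in the macrophages of 3 libraries and at 0.133 CPM each, without TMM scaling, in Din-KO replicate 1. Ifnar2 was at 310 and 340 CPM in WT against 306 and 234 CPM in Din-KO.

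**Figure D3:**
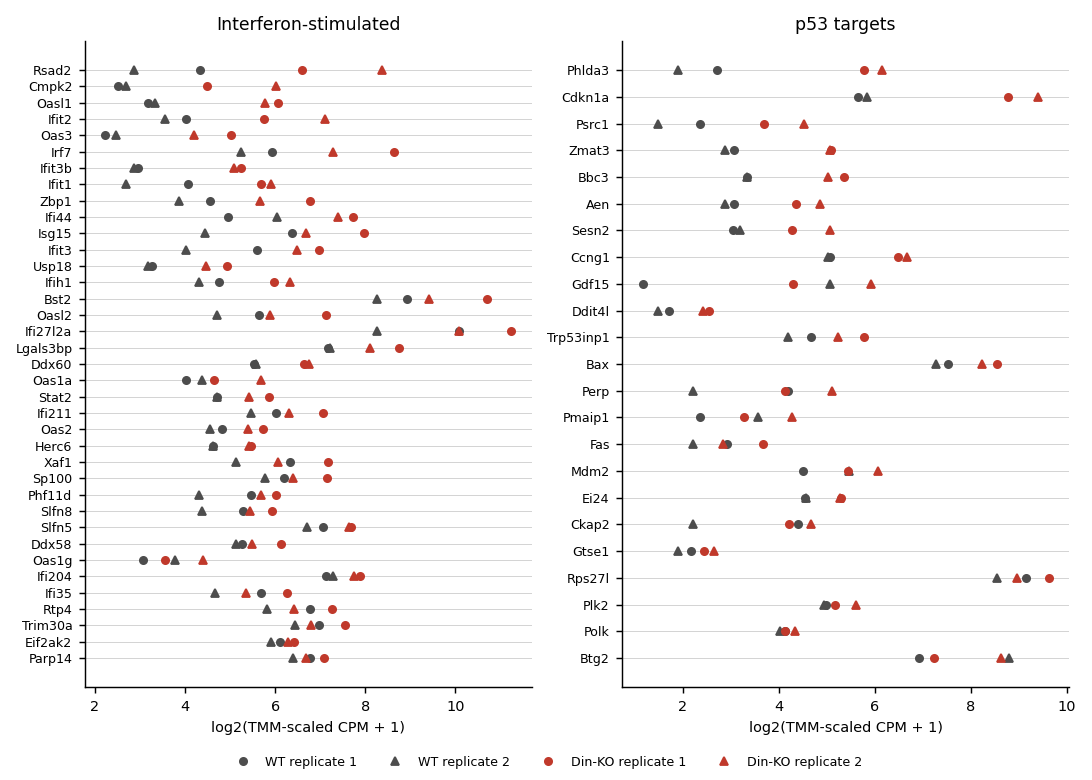
TMM-scaled levels of interferon-stimulated and p53 target genes, as log2(CPM + 1), with 1 point per library, ordered by log2 fold change. The Din-KO points lie above the WT points for 30 of the 37 interferon-stimulated genes drawn and for 14 of 23 p53 targets.

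Interferon-inducible GTPases and MHC class I genes lay on the same side. Of 13 interferon GTPases tested, all had a positive log2 fold change (median 1.17), and the genotypes did not overlap for 10 (76.9%, background 11.9%). Their median ranged from 0.95 without WT replicate 2 to 1.76 without WT replicate 1. Iigp1, an immunity-related GTPase that attacks the vacuoles of parasites, was at 39.1 and 15.3 CPM in WT against 189 and 89.9 CPM in Din-KO, whereas Gbp7, the most abundant of the family, was at 136 and 92.8 CPM in WT against 144 and 84.7 CPM in Din-KO. All 9 MHC class I genes had a positive log2 fold change (median 0.76), and 7 did not overlap between genotypes (77.8%, background 11.9%). Their median was 0.56 without Din-KO replicate 1 and 1.27 without WT replicate 1. H2-K1, a class I heavy chain, was at 574 and 384 CPM in WT against 1682 and 1216 CPM in Din-KO (1.60 ± 0.36, edgeR adjusted p = 0.606). Tap1, the peptide transporter, was at 26.7 and 33.4 CPM in WT against 86.5 and 93.4 CPM in Din-KO (1.60 ± 0.28, adjusted p = 0.332). The proteasome genes Psmb8 and Psmb9 were the 2 that overlapped. Summed over the class I list, cells with a Y-linked UMI and cells with Xist alone had 6899 and 7720 CPM in Din-KO replicate 1 and 6161 and 5177 CPM in Din-KO replicate 2.

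**Figure D4:**
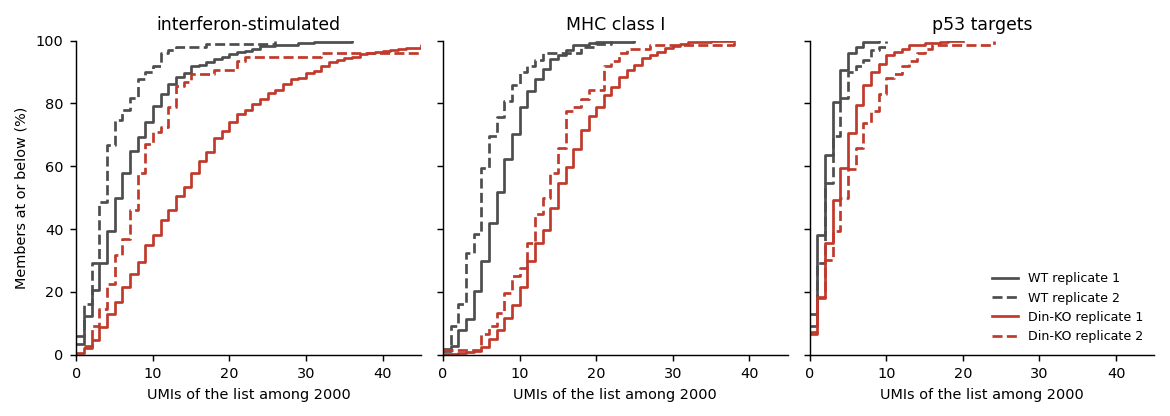
Cumulative percentage of macrophages (vertical axis) by the number of UMIs of a gene list among 2000 UMIs per cell (horizontal axis), with 1 line per library. For the interferon-stimulated list the Din-KO lines (medians 13 and 8) lie to the right of the WT lines (medians 6 and 4), and for MHC class I the medians are 15 and 13.5 against 7 and 5.

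Targets of p53, the transcription factor that responds to DNA damage and other stress, showed a like pattern. Of 23 tested, 22 had a positive log2 fold change (median 1.00) and 14 (60.9%, background 11.9%) did not overlap between genotypes. DESeq2 called 4 of the 23 higher, against 0.36% of all genes tested, while edgeR called 0. With a library left out the median lay between 1.10 and 1.49, and it was 0.72 after thinning. Besides Cdkn1a and Phlda3, Ccng1 (cyclin G1) was at 32.5 and 31.6 CPM in WT against 88.8 and 100 CPM in Din-KO (1.55 ± 0.27, adjusted p = 0.332). Zmat3, a zinc finger regulator of splicing, was at 7.40 and 6.31 CPM in WT against 33.0 and 32.3 CPM in Din-KO (2.21 ± 0.34, adjusted p = 0.244). The effectors of cell death Bax and Bbc3 (PUMA) were also apart: Bax was at 182 and 153 CPM against 371 and 299 CPM, and Bbc3 at 9.05 and 9.01 CPM against 39.8 and 31.4 CPM. Btg2, which is also an immediate early gene, was the member with a negative fold change and overlapped, at 119 and 445 CPM in WT and 150 and 394 CPM in Din-KO. Cdkn1a was detected after thinning in 6.97% and 9.09% of WT and in 41.2% and 56.6% of Din-KO macrophages. Cells with a Y-linked UMI and cells with Xist alone had 400 and 407 CPM of Cdkn1a in Din-KO replicate 1 and 746 and 694 CPM in Din-KO replicate 2. For the whole p53 list these sums were 2070 and 2155 CPM in replicate 1 and 2742 and 2621 CPM in replicate 2.

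Other chemokine and receptor genes stood out singly. Ccl8, a monocyte attractant, was at 38.5 and 102 CPM in WT against 373 and 288 CPM in Din-KO (2.27 ± 0.49, edgeR adjusted p = 0.538). Cxcl10, an interferon-induced attractant of T cells, was at 16.5 and 37.0 CPM in WT against 57.4 and 185 CPM in Din-KO (edgeR adjusted p = 1.0). Fcgr4, an activating Fc receptor, was at 21.4 and 37.9 CPM in WT against 110 and 93.4 CPM in Din-KO (1.84 ± 0.35, edgeR adjusted p = 0.426). DESeq2 called all 3, with adjusted p of 0.000423, 0.0318 and 0.0158. Of 15 chemokine genes 5 (33.3%, background 11.9%) were higher without overlap and 1 (6.67%, background 12.4%), the CCR3 ligand gene Ccl24, was lower. Of 6 Fc receptor genes 4 (66.7%, background 11.9%) were higher without overlap.

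Gene lists of the programs that describe the macrophages had smaller median differences. The median log2 fold change was 0.11 over 11 complement genes, 0.00 over 15 microglia-like genes, -0.16 over 11 Lyve1-type genes, -0.02 over 16 transcription factors, 0.06 over 20 lysosomal genes, 0.11 over 13 lipid genes and 0.14 over 7 MHC class II genes. The complement and microglia-like lists hold genes that chose the cells. C4b is not in the complement list, nor is Cfb (factor B of the alternative pathway), which is named after its values were seen. Cfb was at 4.73 and 4.51 CPM in WT against 70.4 and 34.1 CPM in Din-KO (3.52 ± 0.46, edgeR adjusted p = 0.106), and DESeq2 called both genes. Leaving out a library turned the sign of some medians: that of MHC class II was -0.36 without Din-KO replicate 1 and 0.43 without Din-KO replicate 2, and that of complement was -0.05 without Din-KO replicate 1 and 0.31 without WT replicate 2. In the Lyve1-type list, 4 of 11 genes (36.4%, background 12.4%) were lower without overlap, namely Mrc1, F13a1, Cbr2 and Cd163, and Timd4 was higher. F13a1, a coagulation factor chain, was at 548 and 863 CPM in WT against 404 and 513 CPM in Din-KO. Mrc1 was at 1882 and 2028 CPM against 1787 and 1788 CPM. Summed over the list without TMM scaling, the level was 9277 and 8150 CPM in WT against 7186 and 7248 CPM in Din-KO, and with every cell thinned to 2000 UMIs the median macrophage held 18 and 17 UMIs of it in WT and 13 and 12.5 in Din-KO. In Din-KO, cells with a Y-linked UMI and cells with Xist alone had 7314 and 7148 CPM of this list in replicate 1 and 6845 and 7691 CPM in replicate 2. Gene lists for receptors of CSF1 and TGF-beta, cytokines, scavenger receptors, Toll-like receptors, iron handling and proliferation had medians between -0.18 and 0.20. The 15 dissociation genes had a median of -0.51, with no gene outside the overlap of the libraries.

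Mesenchyme cells of the same libraries gave the measure of whether these differences were particular to macrophages. The comparison was added after the data were seen, because the Cx3cr1-negative macrophages were too few. In 14608 genes tested in 1686 and 755 WT and 1425 and 531 Din-KO mesenchyme cells, edgeR called 0 (0%), with 168 at an unadjusted p of 0.05. Without overlap between genotypes, the Din-KO mesenchyme was higher for 1352 genes (9.26%), among them 30 of 33 interferon-stimulated genes (median log2 fold change 1.53) and 17 of 25 p53 targets (median 0.88). MHC class I genes had a median of 0.60 and interferon GTPases 1.11. Fold changes of these lists were therefore not confined to macrophages. The fold change in macrophages minus that in mesenchyme had a median of -0.15 over the interferon-stimulated list, 0.48 over MHC class I and 0.47 over p53 targets, against 0.05 over all genes.

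In a single model of both classes, 0 of 14695 genes (0%) had a genotype effect that differed at an adjusted p of 0.05 in edgeR, where 313 had an unadjusted p under 0.05 and DESeq2 called 7. Without WT replicate 1, WT replicate 2, Din-KO replicate 1 or Din-KO replicate 2, edgeR called 195, 90, 29 or 16. The genes nearest the threshold included C4b, with a difference of 3.14 ± 0.38 (SE) log2 units (adjusted p = 0.249). In mesenchyme C4b was at 7.57 and 21.5 CPM in WT against 14.3 and 15.1 CPM in Din-KO, so the groups overlapped there. Cdkn1a had a difference of 1.82 ± 0.25 (adjusted p = 0.249) and was at 95.9 and 116 CPM in WT against 257 and 400 CPM in Din-KO mesenchyme. Ifi44 differed in the other direction (-2.72 ± 0.45, adjusted p = 0.464), with 0.104 and 0.28 CPM in WT and 7.77 and 3.66 CPM in Din-KO mesenchyme against 29.8 and 64.9 CPM and 211 and 167 CPM in macrophages. A missed threshold with 2 libraries a group does not show that the classes responded alike.

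**Figure D5:**
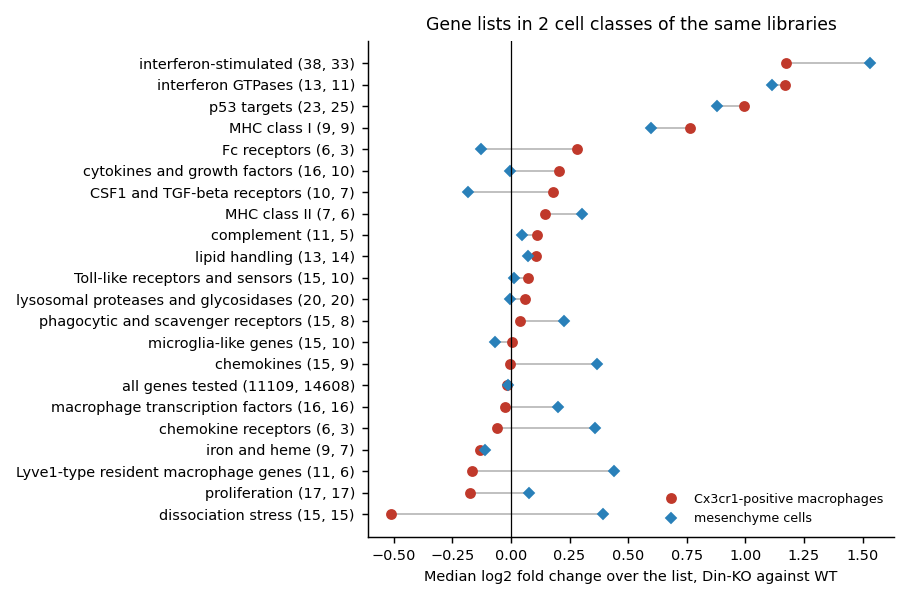
Median log2 fold change of Din-KO against WT over each gene list (horizontal axis) in the Cx3cr1-positive macrophages (circles) and the mesenchyme cells (diamonds) of the same libraries, with the numbers of genes tested in each class in parentheses. The interferon, p53 and MHC class I lists lie above 0.5 in both classes, and the median of all genes lies at -0.02 and -0.01.

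The same model against the Cx3cr1-negative, Mrc1-positive macrophages called 3 of 7975 genes (0.0376%). They were Fmod, Amelx and Col4a1, a proteoglycan of connective tissue, the enamel protein whose RNA marked the barcodes of Din-KO replicate 2, and a basement membrane collagen. DESeq2 called 0 on the same counts, and 239 genes had an unadjusted p under 0.05 in edgeR, whose calls numbered 0, 0, 7 and 7 without WT replicate 1, WT replicate 2, Din-KO replicate 1 and Din-KO replicate 2. Din-KO replicate 2 entered this comparison with 2 Cx3cr1-negative cells and 10619 UMIs.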

How the data were processed

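The authors digested proximal incisor tissue with liberase at 37 degrees, removed dead cells and prepared 10x 3' libraries. Per the file headers, CellRanger 6.0.2 made the deposited UMI counts per gene and barcode, aligned to mm10/GRCm38 per the labels, with no normalization. Totals were 50423655, 32198098, 54348039 and 33076212 UMIs over 6613, 3257, 6958 and 3674 barcodes of WT replicate 1, WT replicate 2, Din-KO replicate 1 and Din-KO replicate 2. Free RNA was not removed and no doublet caller was run. Of all barcodes 44 sequences occurred in more than 1 library.

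UMIs were summed per library over the macrophages and tested in edgeR 4.0.16 (R 4.3.3) by the quasi-likelihood test after TMM scaling and filterByExpr, with p-values adjusted over all genes by Benjamini-Hochberg and called under 0.05. All adjusted p-values are from edgeR unless DESeq2 1.42.0 is named, and all tests are two-sided. The interaction fits held the library as a block. The fits were tested on simulated data. Cells were thinned at random to 2000 UMIs where detection was compared. Ratios between classes of cells used CPM + 1. Intervals are exact binomial at 95% and cover counting error only.

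Named were the genes of the rule and the markers, Din, the sex-linked genes, the 5 genes of smallest p in each direction where fewer passed, the most abundant genes and, from each list, its abundant members and those past a threshold. Genes named beyond these were chosen after their values were seen. The members and lists were chosen with earlier results of these data known. The comparison with mesenchyme cells and the cut on MHC class II were set after seeing the data. So was the removal of cells with over 1% of UMIs from another class, in which epithelial markers did not count. A few genes and 1 gene list are not reported here.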

Additional observations from a re-analysis of the deposited data

Results flagged for a closer look

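The genotype effect differed between Cx3cr1-positive and Cx3cr1-negative, Mrc1-positive macrophages for 3 genes in edgeR's test of the difference itself: Fmod (log2 difference -11.8 ± 2.24 SE, adjusted p = 0.00108), Amelx (2.81 ± 0.58, adjusted p = 0.00617) and Col4a1 (-5.39 ± 1.22, adjusted p = 0.0284). DESeq2 and the fit after thinning called 0, and the negative class held 8 cells in WT replicate 2 and 2 in Din-KO replicate 2. All 3 are genes of other cell classes, and the part of their free RNA in this result was not tested.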

How the results depend on the processing

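The count of genes called between genotypes was 0, and it stayed 0 with RLE size factors, with at least 1 or 3 UMIs of Cx3cr1 and after thinning. It also stayed 0 without cells with over 1% of UMIs from another class, a limit that was not applied to epithelial markers. It was 170 with no filter on low counts, 41 in DESeq2, 4 in cells with Xist and no Y-linked UMI, and 11 to 94 with 1 library left out. With the replicate number as a block it was 19; the labels do not say that a number marks a shared day or litter, and replicate 1 minus replicate 2 correlated between genotypes with r = 0.31 over 11109 genes, which are not independent. For Din and the 5 genes of smallest p in each direction that are not sex-linked, none of these settings reversed a direction: 99 values stayed on their side of the threshold and 41 passed it. For the medians of 8 gene lists (interferon-stimulated, interferon GTPases, MHC class I and II, p53 targets, complement, Lyve1-type and microglia-like), 76 values moved by less than the spread between pairs of libraries and 28 by more; the medians of other lists were not recomputed. The interaction with Cx3cr1-negative macrophages called 3 genes, 0 in DESeq2, 0 after thinning and 0 to 7 with 1 library left out. The interaction with mesenchyme called 0, 7 in DESeq2, 68 with no filter and 16 to 195 with 1 library left out. Of the class comparison, 7 genes higher became 11 against all C1q macrophages without Cx3cr1, 67 after thinning, 40 at a mean of 20 CPM, 2 at 100 CPM and 10 to 52 with 1 library left out, and 1 gene lower became 0 against all C1q macrophages without Cx3cr1, 0 at 100 CPM and 2 to 9 with 1 library left out. The mean share of C1q macrophages with at least 2 UMIs of Cx3cr1, 88.8% in WT and 91.5% in Din-KO, was 93.0% and 95.5% at 1 UMI, 86.1% and 87.4% at 3 UMIs, 82.0% and 84.6% with at least 1 UMI after thinning, which changes both depth and limit, 85.8% and 90.5% at 5 UMIs of C1q and 90.2% and 93.0% at 20. The causes were not tested. Leaving out every cell with 3 or more UMIs of another class was not run, since it left 138, 1, 204 and 8 macrophages.

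The 99 and 77 macrophages of the second libraries limit every comparison, and where a left-out library leaves 1 in a group, that library is assumed to vary like the others. Sex-linked RNA and genotype differ together, whereas RNA of neutrophils and epithelium differed by library and overlapped between genotypes.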
